A study of Petunia x hybrida with 48 samples.

Results

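Resupply of phosphate to phosphate-limited petunia plants was followed, within 24 h, by lower levels of a set of 332 genes in every axillary bud sampled. The members were chosen by their deposited expression values in experiment 3, the resupply experiment. A gene was kept when its normalised read counts averaged 50 or more over all 24 libraries and when (low P mean + 1)/(high P mean + 1) was at least 2 in each of bud 2, bud 3, bud 6 and bud 7. The table listed 32830 genes, and 20228 of them averaged 50 or more. After 4 identifiers were left out, 332 genes met the rule. The ratio that chose the genes is called the fold below, and it is given as a description without a test. Gene identifiers are those of the Petunia axillaris genome with the leading Peaxi162 removed.

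The buds came from the inbred Petunia hybrida line V26 grown in hydroponics, and were numbered by node from the base of the main shoot. In experiment 3, plants first grown in low phosphate (low P, 5 µM) were moved to fresh low P or resupplied with high phosphate (high P, 250 µM). In experiment 1, plants first grown in high P were moved to fresh high P or to low P, so that the low P group was withdrawn from phosphate. Buds 2, 3, 6 and 7 were taken 24 h after the change, with 3 pools of buds for each bud and medium, which made 24 libraries per experiment. Bud 2 and bud 3 are the basal buds and bud 6 and bud 7 the apical buds. Each library was a pool over several plants, and pools of different buds could come from the same plants. Reads of the hybrid were aligned to the genome of a parental species. A pool holds whole buds, and fewer cells of a type cannot be told apart from less RNA per cell.

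Plants short of phosphate sense it through SPX domain proteins, which bind inositol pyrophosphates and, when phosphate is plentiful, hold back the PHR transcription factors that switch on the starvation genes. In starved tissue these genes raise phosphate uptake, release phosphate from organic esters and RNA, and replace membrane phospholipids with galactolipids and sulfolipids. Phosphate supply is also one of the cues that sets how many axillary buds of a shoot grow out.

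Experiments 1 and 3 were normalised separately, and library totals were 39733086 to 46381919 normalised counts in experiment 1 and 82964169 to 95608712 in experiment 3. All 53 genes described as histones, the cell cycle kinase CDKB1 or replication factors, which dividing buds express, passed the level filter in both experiments. The members together took 1.73% to 6.04% of the normalised counts in the 12 low P libraries of experiment 3, and 0.465% to 1.67% in the 12 resupplied libraries. The 2 ranges came close, at 1.73% and 1.67%, without overlap. The rule chose the members for this direction in these libraries, so that nothing is read from the separation. In experiment 1 they took 0.379% to 1.36% in high P and 0.487% to 1.39% after withdrawal. The low P replicate 1 library of bud 2 held the highest low P value for 283 of the 332 members, and low P replicate 3 of bud 3 did so for 285. Without these libraries 242 and 260 of the 332 still met the rule, which can keep a gene raised by a single library. The share of all genes was not counted, so that nothing is read from counts of the highest pool here or below.

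Within each bud the 3 low P pools lay above the 3 resupplied pools without overlap for 307, 283, 320 and 305 of the 332 members in buds 2, 3, 6 and 7, against 20%, 15.4%, 25.9% and 23% of the genes that averaged 50 or more. In all 4 buds at once this held for 254 of 332 members, against 7.08% of those 20228 genes. In limma's moderated test with Benjamini-Hochberg adjustment over all 22584 genes tested, 193, 275, 312 and 259 members were called higher in low P in buds 2, 3, 6 and 7, where a call needed a change of more than 2-fold and an adjusted p below 0.05. The same call was made for 1.56%, 4.95%, 5.76% and 3.04% of all genes. Since the rule used these ratios, nothing is read from these counts. The fold was largest in bud 6 for 142 members and in bud 3 for 112, whereas 52 had it in bud 2 and 26 in bud 7.

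By their descriptions, 143 members fell into 10 role groups, and 189 had another description or none. Over all members the median folds were 3.09, 3.96, 4.48 and 3.45 in buds 2, 3, 6 and 7. Of the role groups, only the 10 genes of phosphate sensing and transport had medians above 9 in every bud. The bud with the largest fold also varied. It was bud 2 for 8 of 14 membrane lipid genes and bud 6 for 17 of 24 genes of abscisic acid, dormancy and desiccation. In low P bud 2, replicate 1 was the highest pool for 13 of the 14 membrane lipid genes. Whether the groups differed in this was not tested.

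**Figure D1:**
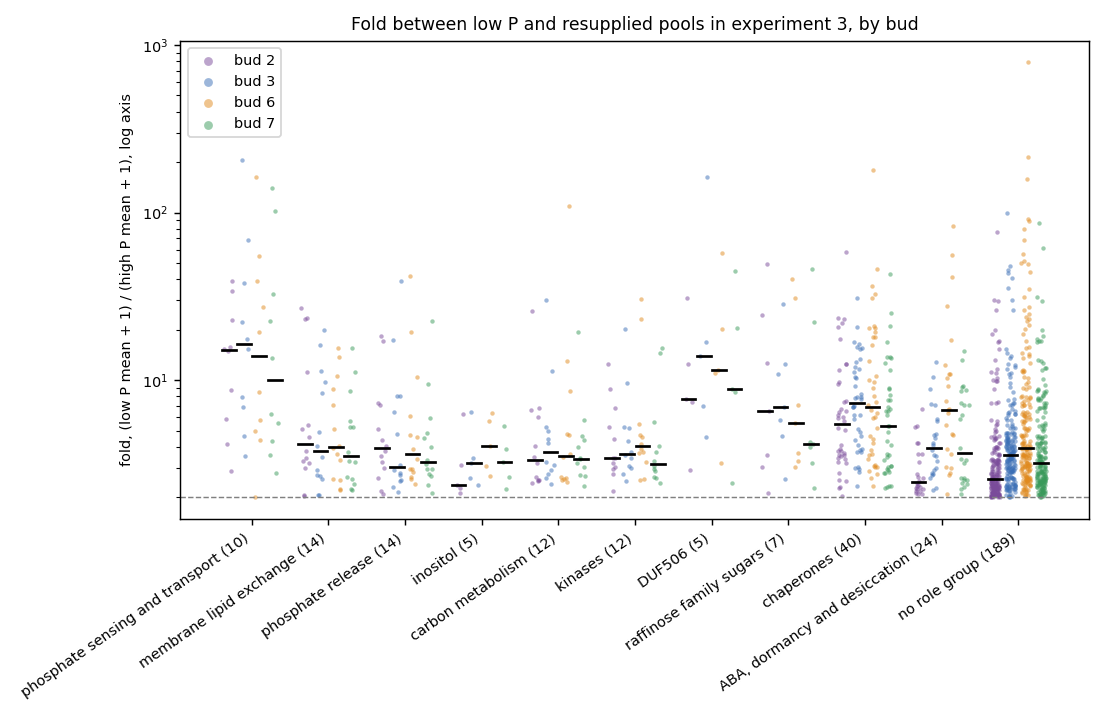
Fold of each of the 332 members in experiment 3, (low P mean + 1)/(high P mean + 1) on a log axis, by role group with the number of genes in brackets; each point is 1 gene in 1 bud, bars are group medians and the dashed line is the 2-fold limit of the rule. The phosphate sensing and transport medians were 15.2, 16.5, 13.9 and 9.97 in buds 2, 3, 6 and 7.

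Phosphate sensing and transport genes had the highest folds as a group. The SPX domain genes, sensors of cellular phosphate, were members in all 4 copies described. SPX domain gene 3 (Scf00803g00014.1) had normalised counts of 18198, 15263 and 11896 in the 3 low P pools of bud 2 and 474, 471 and 392.3 after resupply. In bud 6 its counts were 12610.0, 14774 and 18607 in low P and 749, 461 and 1162 after resupply. The groups did not overlap in any bud, and the folds were 33.8, 38.1, 19.4 and 13.6 in buds 2, 3, 6 and 7. SPX domain gene 2 (Scf00073g01422.1) ranged from 9848 to 23257 over the low P pools and from 1719 to 7749 over the resupplied pools. The 2 copies of SPX domain gene 1 had their larger folds in different buds. The first (Scf01269g00014.1) had folds of 14.99, 15.4, 8.44 and 6.31, larger in the basal buds, and the second (Scf00944g00034.1) had folds of 2.88, 3.52, 5.74 and 5.51, larger in the apical buds.

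Phosphate transporter 1 proteins take up phosphate across the plasma membrane, and 4 members carried that description. The copy Scf00855g00210.1 had 2269.7, 1474 and 694 normalised counts in low P bud 2 and 24.3, 66.1 and 20.6 after resupply. In bud 7 it had 2259, 5652 and 1693 in low P and 29.6, 107 and 286 after resupply. Another copy (Scf00018g00203.1) had 354, 833 and 1606 in low P bud 3 and 1.12, 2.70 and 6.79 after resupply, a fold of 205. No pool of one medium overlapped with the other in any bud for any of the 4 copies. The remaining copies, Scf00006g00445.1 and Scf00829g00066.1, had folds of 15.8, 22.4, 38.9 and 102 and of 15.4, 68.5, 55.3 and 32.6. These genes belong to a family of close copies, and how reads were shared between copies was not examined here. PHO1 (Scf00602g00111.1), which in Arabidopsis exports phosphate into the xylem, was the one gene of the group with overlapping pools. In bud 6 its counts were 2981, 1992 and 3989 in low P and 2065, 957 and 1433 after resupply, a fold of 2.01. A gene described as sugar phosphate exchanger 2 (Scf00241g00221.1) had folds of 5.84, 6.92, 4.99 and 4.35.

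**Figure D2:**
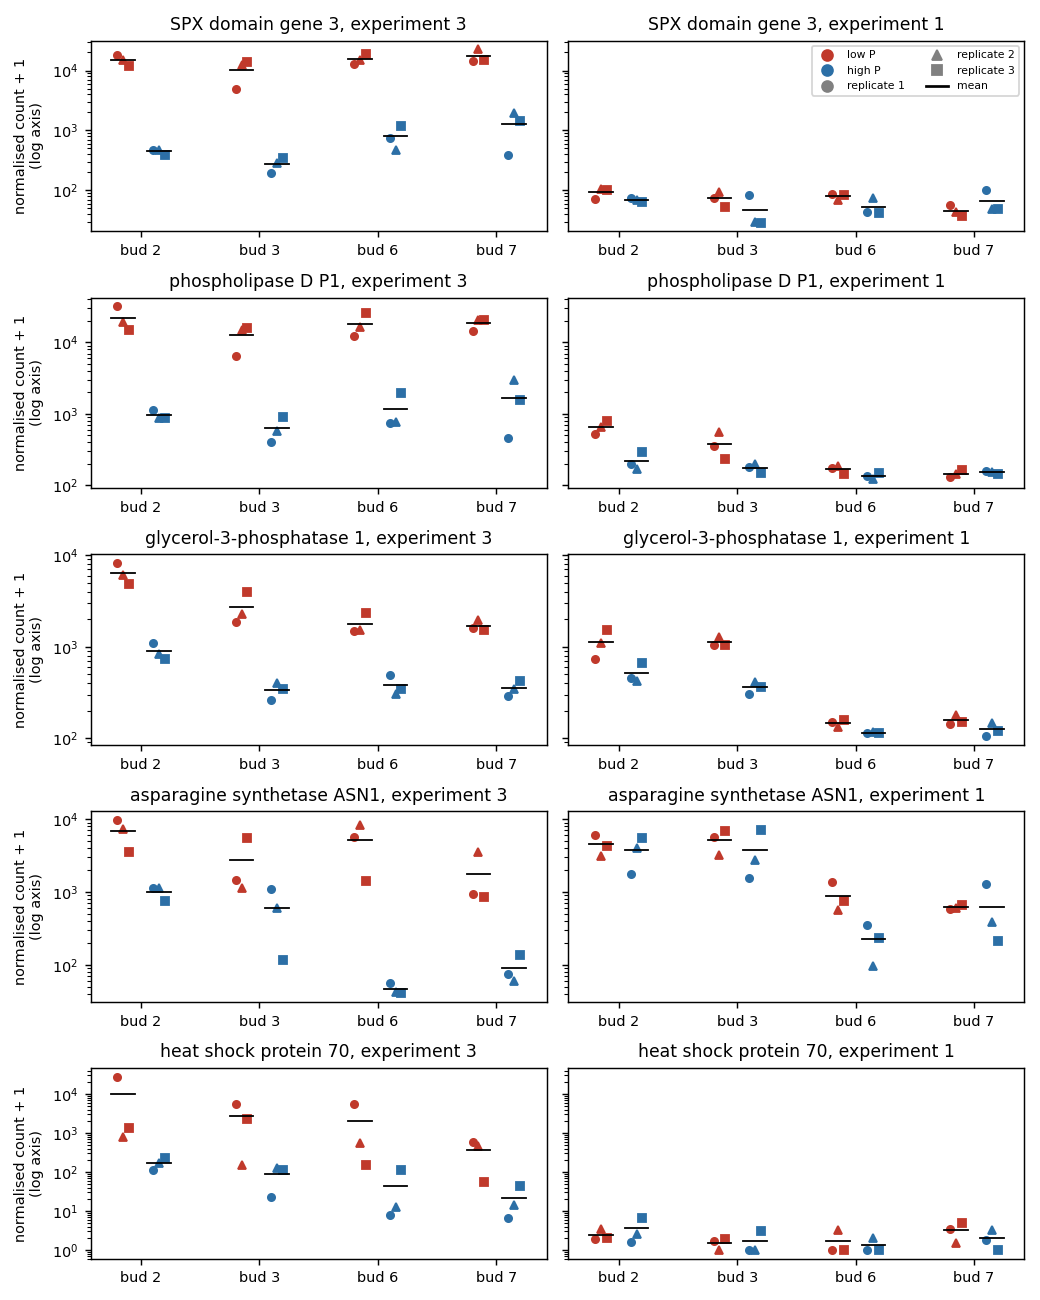
Normalised count + 1 on a log axis in each pool for 5 members, with experiment 3 on the left and experiment 1 on the right; colour gives the medium, the marker shape the replicate number, and the bar the mean of 3 pools. The axes of a row are shared, but the 2 experiments were normalised separately and have different totals. SPX domain gene 3 separated low P from resupplied pools in every bud of experiment 3, and heat shock protein 70 (Scf00553g00533.1) was highest in replicate 1 of low P in every bud.

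Membrane lipid exchange was represented by 14 members, all without overlap in all 4 buds, with median folds of 4.18, 3.77, 3.98 and 3.51. Phospholipase D P1 (Scf00037g01718.1), of the type that in Arabidopsis breaks down phospholipids during phosphate starvation, had 32085, 19611 and 15082 normalised counts in low P bud 2 and 1119, 867 and 885 after resupply. In bud 7 it had 14571, 20509 and 20661 in low P and 459.8, 2955 and 1547 after resupply. Its folds of 23.2, 19.8, 15.6 and 11.2 were lower in the apical buds, where the resupplied pools were uneven. The fold of a PLC-like phosphodiesterase (Scf00420g00727.1) was 26.9 in bud 2 and 5.70 in bud 7. Monogalactosyldiacylglycerol synthase 2 (Scf00088g00096.1), which makes galactolipid, had folds of 5.38, 4.91, 5.11 and 5.27, close to even over the buds. UDP-sulfoquinovose synthase (Scf00327g00612.1), which makes the head group of sulfolipid, was at 23678 to 49504 in the low P pools and 7164 to 20757 after resupply. Its fold was 3.8 in bud 2 and 2.05 in bud 3. A gene described as a GDP-mannose-dependent alpha-mannosyltransferase (Scf00141g00615.1) had folds of 11.2, 11.3, 10.6 and 8.58. A Sec14p-like phosphatidylinositol transfer protein (Scf00140g00079.1) reached folds of 23.3 in bud 2 and 15.6 in bud 7, with 2.27 to 17.7 normalised counts over the resupplied pools. The group also held 2 genes described as digalactosyldiacylglycerol synthases, which make galactolipid, with folds between 2.08 and 4.03.

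Phosphate release was also represented by 14 members without overlap in any bud. Purple acid phosphatase 12 (Scf00656g00311.1), of a class of enzymes that free phosphate from organic esters, had 34679, 24812 and 24154 normalised counts in low P bud 2 and 2130.5, 1433 and 1321 after resupply. In bud 6 the counts were 23958, 27435 and 38612 and 2849, 1878 and 3879. Its folds were 17.1, 17.3, 10.5 and 9.54. Ribonuclease 1 (Scf00023g00251.1), which degrades RNA and is known in Arabidopsis as a starvation gene, had 226, 368 and 327 in low P bud 6 and 2.37, 10.2 and 6.51 after resupply, a fold of 41.9. Its smallest fold was 18.3, in bud 2. A pyridoxal phosphate phosphatase-related protein (Scf00038g01325.1) had folds of 7.26, 6.48, 6.09 and 5.97. Smaller and even folds were found for inorganic pyrophosphatase (Scf00039g01118.1), which splits pyrophosphate, at 2.61, 2.53, 2.58 and 2.77, and for a hydrolase acting on ester bonds (Scf01356g00004.1), at 3.24, 4.79, 3.88 and 4.01. Glycerol-3-phosphatase 1 (Scf00469g00218.1), which frees phosphate from glycerol 3-phosphate, had 1864, 2253 and 3958 in low P bud 3 and 259.6, 404 and 343 after resupply.

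Of the genes around the starvation pathway that were searched by description, all 4 SPX domain genes were members, as were 5 of 11 described as phosphate transporter 1 or PHO1 and 4 of 9 purple acid phosphatases. Of the 11 transporters, 7, 9, 7 and 8 were called higher in low P in buds 2, 3, 6 and 7 and none lower. All 9 purple acid phosphatases were called higher in bud 3, and 5, 6 and 6 in buds 2, 6 and 7. All 7 genes described as galactinol, raffinose or stachyose synthases were members, but 25 of 40 heat shock proteins, 4 of 10 late embryogenesis abundant proteins and 4 of 9 protein phosphatases 2C. Of 39 heat shock proteins tested 9, 20, 21 and 17 were called higher in low P, and 1 was called lower in bud 3. Of the protein phosphatases 2C 3, 4, 5 and 4 were called higher, and 1 was called lower in bud 2. Of the late embryogenesis abundant proteins 2, 4, 7 and 4 were called higher and none lower. Over all genes 1.56%, 4.95%, 5.76% and 3.04% were called higher in buds 2, 3, 6 and 7, and 1.22%, 2.86%, 1.83% and 1.31% lower. These lists overlap with the set and use the contrast that chose it. They hold only genes described in the study's lists of genes that differed in these samples, so that nothing is read from their counts.

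The 5 inositol members had median folds of 2.36, 3.21, 4.06 and 3.22. Inositol-3-phosphate synthase (Scf00183g00923.1), the first enzyme of inositol synthesis, had 228762, 158050.5 and 189281 normalised counts in low P bud 2 and 92521, 89389 and 89331 after resupply. In bud 6 it had 89027, 97358 and 57029.9 in low P and 10062, 10896 and 17067 after resupply. The fold was 2.12 in bud 2 and 6.40 in bud 6, and the resupplied pools of bud 2 lay within the range of the low P pools of bud 6. Inositol transporter 1 (Scf00375g00619.1) likewise had folds of 2.28 in bud 2 and 4.06 in bud 6. Inositol monophosphatase (Scf00352g00717.1), the last enzyme of the pathway, was even over the buds at 3.13, 3.21, 3.08 and 3.22. A gene described as inositol-1,4,5-trisphosphate 5-phosphatase 4 (Scf00450g00740.1) had folds of 6.30, 6.47, 5.72 and 5.29.

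Carbon metabolism held 12 members with median folds between 3.35 and 3.75. Phosphoglucomutase (Scf00376g00214.1), which interconverts glucose 1-phosphate and glucose 6-phosphate, had 94097, 88778 and 75679 normalised counts in low P bud 2 and 33180.2, 34038 and 34797 after resupply. Its folds of 2.53, 2.59, 2.46 and 2.66 were even over the buds. Phosphoenolpyruvate carboxylases 3 (Scf00069g02244.1) and 4 (Scf00369g00124.1), which fix bicarbonate into oxaloacetate, had folds of 2.65, 3.13, 2.65 and 3.04 and of 2.45, 2.91, 3.47 and 3.44. Pyruvate, phosphate dikinase 2 (Scf00095g00414.1) had folds of 2.49, 4.96, 4.70 and 4.01. Asparagine synthetase ASN1 (Scf00540g00013.1), which stores nitrogen as asparagine and is known in Arabidopsis from sugar-starved tissue, had 9733, 7377 and 3511 in low P bud 2 and 1146, 1122 and 766 after resupply. In bud 6 it had 5753, 8305 and 1400.4 in low P and 56.7, 42.2 and 40.2 after resupply. Its fold was 6.79 in bud 2 and 109 in bud 6. A nodulin MtN3 sugar transporter (Scf00904g00131.1) had folds of 4.02, 11.3, 8.62 and 5.76, with overlapping pools in bud 7.

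Among 12 kinases, calcium-dependent protein kinase 21 (Scf00519g00012.1) had folds of 8.88, 9.62, 23.2 and 15.6. The 2 copies of calcium-dependent protein kinase 33, Scf00135g00056.1 and Scf00135g00417.1, had folds of 3.44, 4.34, 3.89 and 2.95 and of 2.76, 3.44, 3.71 and 2.85. CBL-interacting protein kinase 20 (Scf00167g00138.1), of a family activated by calcium sensors, had folds of 3.01, 2.51, 2.54 and 2.63. Of 2 genes described as protein kinase superfamily proteins, Scf00050g00513.1 had folds of 2.96, 2.75, 2.58 and 2.60 and Scf00129g01041.1 had 12.5, 20.2, 30.4 and 14.6. The 5 members with a DUF506 domain, a plant domain of unknown function, had median folds of 7.71, 14.0, 11.4 and 8.89. The one with the largest folds (Scf00040g03015.1) had 449, 1478 and 2847 normalised counts in low P bud 3 and 1.12, 9.91 and 15.3 after resupply, and folds of 30.9, 163, 57.5 and 44.7. For Scf00054g00071.1, Scf00176g00036.1 and Scf01069g10012.1 the lowest folds were 6.99, 7.71 and 8.55.

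Chaperones made up the largest role group, with 40 members and median folds of 5.43, 7.35, 6.88 and 5.30, and their low P pools were uneven. These proteins refold or disaggregate damaged proteins and rise with heat. Low P replicate 1 held the highest low P value for 40 of 40 chaperones in bud 2, for 40 of 40 in bud 6 and for 33 of 40 in bud 7, and for 11 of 40 in bud 3. A heat shock protein 70 (Scf00553g00533.1) had 27513, 813 and 1379.6 normalised counts in low P bud 2 and 111, 171 and 228 after resupply. In bud 6 it had 5465, 545 and 152 in low P and 7.10, 11.4 and 113 after resupply. Its pools did not overlap between media, but replicate 1 made up most of the low P mean in both buds. Another heat shock protein 70 (Scf01013g00226.1) overlapped in 2 buds, and in bud 6 had 9142, 1247 and 82.7 in low P and 3.55, 1.14 and 50.6 after resupply. Chaperone protein ClpB (Scf00201g00240.1), a disaggregase, had 151587, 33546 and 44521 in low P bud 2 and 7541, 10404 and 20056 after resupply, a fold of 6.04. BAG family chaperone regulator 6 (Scf01254g00022.1) had folds of 3.56, 5.90, 7.11 and 5.29, heat shock 70 kDa protein 3 (Scf00760g00015.1) of 3.51, 6.18, 8.95 and 8.16, and another heat shock protein 70 (Scf00679g00032.1) of 2.29, 3.85, 3.03 and 3.49. Of the 40 chaperones, 26 had no overlap in all 4 buds.

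With all 4 low P replicate 1 libraries left out, an alternative chosen after the data were seen, 25 of 40 chaperones still met the rule, beside 10 of 10 genes of phosphate sensing and transport, 13 of 24 of abscisic acid, dormancy and desiccation, and 4 of 7 of raffinose family sugars. With that group of pools left out 239 genes met the rule, of which 224 were among the 332. What the replicate 1 pools of low P shared was not tested.

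Raffinose family sugars, which plants store and use as protectants, were represented by 7 members. Galactinol synthase 1, the first enzyme of the pathway, appeared in 3 copies. One of them (Scf00366g00813.1) had 7061, 762 and 906 normalised counts in low P bud 2 and 128, 115 and 110.2 after resupply. In bud 6 it had 439, 219.8 and 164 in low P and 7.10, 10.2 and 6.50 after resupply. The fold was 24.5 in bud 2, where replicate 1 set most of the mean, and 46.3 in bud 7. A second copy (Scf00770g00316.1) had folds of 12.7, 10.9, 40.1 and 22.3. The raffinose synthases Scf00493g00434.1, Scf00198g00212.1 and Scf00089g01521.1 had smallest folds of 2.11, 3.05 and 2.55. In low P bud 2 Scf00089g01521.1 had 4403, 667 and 779, again with replicate 1 highest.

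**Figure D3:**
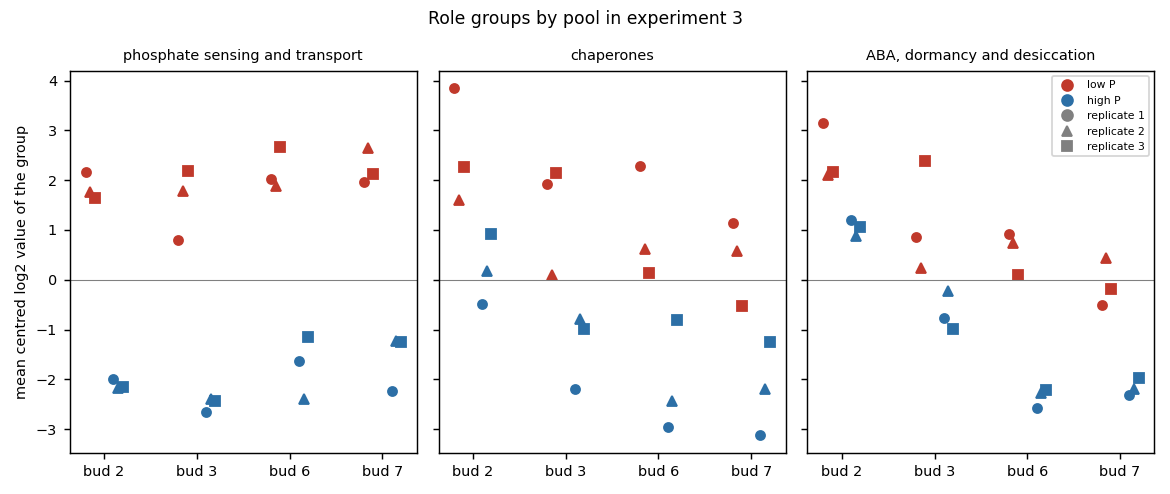
Mean centred log2(normalised count + 1) of 3 role groups in each pool of experiment 3; each gene was centred on its mean over the 24 libraries, colour gives the medium and the marker shape the replicate number. In phosphate sensing and transport every low P pool lay above every resupplied pool, whereas chaperones ranged from 3.85 in replicate 1 to 1.60 in replicate 2 within low P bud 2.

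Genes of abscisic acid, dormancy and desiccation numbered 24, with median folds of 2.46, 3.95, 6.67 and 3.67. A late embryogenesis abundant protein (Scf00020g00154.1), of a family that protects drying cells, had 17103, 17915 and 15729 normalised counts in low P bud 2 and 7339, 7037 and 6029.7 after resupply. In bud 6 it had 12095, 10782 and 9939 and 3825, 4210.2 and 3736. The groups did not overlap and the folds of 2.49, 3.31, 2.79 and 2.60 were even. CAP160 (Scf00444g00847.1), named for a cold acclimation protein of spinach, had 1824, 2004 and 117 in low P bud 6 and 13.0, 14.8 and 40.2 after resupply. Its fold in bud 6 was 55.6 with an uneven low P group, and in bud 2 it was 5.30. A PEBP family protein of the MFT type (Scf00683g00156.1), known from Arabidopsis seed germination, had 1238, 1427 and 2166 in low P bud 6 and 120.2, 33.4 and 122 after resupply. Its folds were 6.74, 10.5, 17.36 and 14.9. ASR4 (Scf00599g00008.1), named for induction by abscisic acid, stress and ripening, had folds of 2.38, 3.00, 3.00 and 2.41, a protein phosphatase 2C (Scf00494g00411.1), of a family that includes repressors of abscisic acid signalling, of 2.12, 2.74, 2.70 and 2.09, and EXORDIUM like 2 (Scf01060g00008.1) of 2.08, 2.80, 3.87 and 2.55. The group also held NCED3, the rate-limiting enzyme of abscisic acid synthesis, with folds between 2.27 and 4.72, and the abscisic acid receptor PYR1, with folds between 2.10 and 2.33. Low P replicate 3 of bud 3 was the highest low P pool of that bud for 23 of the 24. Without that library 14 of the 24 still met the rule, and 13 of the 24 without low P replicate 1 of bud 2. Over all genes 264 and 246 met it.

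The other 189 members had median folds of 2.57, 3.59, 3.95 and 3.21, below those of all members in each bud. Their largest and smallest folds differed most in Scf00418g00810.1, described as an unknown protein, with 24287, 18073 and 13012 normalised counts in low P bud 2 and 5696, 4586 and 6566 after resupply. In bud 6 it had 4848, 7664 and 1119 in low P and 5.92, 4.53 and 3.91 after resupply. The fold was thus 3.29 in bud 2 and 786 in bud 6. The same contrast between buds was seen in Scf00753g00437.1, which has no description, with folds of 2.58, 2.90, 215 and 61.3. A gene described as 60S ribosomal protein L6 (Scf00751g00221.1) had 2.18, 3.09, 51.4 and 12.9, and an Octicosapeptide/Phox/Bem1p family protein (Scf00763g00431.1) had 205, 47.8 and 11.9 normalised counts in low P bud 6 and was listed at 0 in all 3 resupplied pools of that bud. The largest minimum fold of all members was that of an unknown protein (Scf00479g00101.1), which had 261, 88.6 and 129.5 in low P bud 2 and 0, 0 and 3.27 after resupply. The next were Scf00040g03015.1 (DUF506), Scf00366g00813.1 (galactinol synthase 1), Scf00018g00203.1 (phosphate transporter 1) and Scf00023g00251.1 (ribonuclease 1).

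At the threshold, the members with the smallest minimum folds were a CHY-type zinc finger protein (Scf00105g01114.1), tonoplast intrinsic protein 1 (Scf00110g00122.1) and Scf00434g00217.1, each with a smallest fold that rounds to 2.00. Just outside were Scf00784g00010.1, described as an AMP-dependent synthetase, with a smallest fold of 1.998, then Scf00001g00006.1 at 1.996 and Scf00117g00129.1 at 1.994. Over all 24 libraries of experiment 3, the genes outside the set whose log2 values followed the mean of the members most closely were Scf00037g01329.1, an RNA-binding family protein, with a Pearson r of 0.969, Scf00038g02029.1 and Scf01159g00228.1 at 0.966, and Scf00983g00004.1 and Scf00162g00042.1 at 0.963. These correlations share the libraries that chose the members. The smallest fold of Scf01159g00228.1 over the buds was 1.28, in bud 2, so that genes with small folds also followed the mean.

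The next question was how the members were distributed between a basal and an apical bud under 1 medium, which the rule had not used. Experiment 1 also provided libraries that the rule had not used. In high P of experiment 1, 297 of the 332 members averaged 10 or more over the libraries of the experiment and were tested with limma. Of these, 188 were called lower in bud 6 than in bud 2 and 10 higher, with a median log2 difference of -1.78. Over all 22363 genes tested 23.5% were called lower and 16.7% higher, and the median was -0.06. The 35 members not tested included all 4 copies of phosphate transporter 1, 13 chaperones and 2 of the raffinose family genes. Over the 12 high P pools of experiment 1 the copies Scf00855g00210.1 and Scf00018g00203.1 of phosphate transporter 1 were at 1.16 to 28.1 and 0 to 1.19 normalised counts, and after withdrawal at 1.85 to 31.3 and 0 to 14.7. The copy Scf00829g00066.1 was listed at 0 in every withdrawn pool.

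The role groups rest on descriptions from the study's lists of genes that differed in these samples, bud 2 against bud 6 among them. Counts by role between these buds are therefore partly fixed, and nothing is read from them. Of the 24 genes of abscisic acid, dormancy and desiccation, 21 were called lower in bud 6 and 1 higher, with a median of -3.28. Of 13 membrane lipid genes tested 6 were called lower, of 13 phosphate release genes 6, of 27 chaperones 13, of 6 genes of phosphate sensing and transport 3, and of 177 without a role group 118. CAP160 had 2111, 801 and 662 normalised counts in high P bud 2 and 44.9, 10.04 and 7.37 in bud 6. The ranges were far apart, and the log2 difference was -6.00 ± 0.87 (SE) with an adjusted p from limma of 3.8e-06. BAG family chaperone regulator 6 had 268, 139.6 and 843 in bud 2 and 13.6, 0 and 6.26 in bud 6, a log2 difference of -6.07 ± 0.78 (SE) (limma, adjusted p = 8.4e-07). Pyruvate, phosphate dikinase 2 had 7435, 7910.1 and 11189.5 in bud 2 and 489, 213 and 281 in bud 6, a log2 difference of -4.81 ± 0.27 (SE) (limma, adjusted p = 1.3e-11).

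Of the starvation genes in high P, the sugar phosphate exchanger 2 gene had 6322, 5065 and 3865 in bud 2 and 1526, 1388 and 1265 in bud 6, and fell by 1.84 on the log2 scale (SE 0.37, limma, adjusted p = 1.8e-04). PHO1 fell by 1.64 (SE 0.34, limma, adjusted p = 2.0e-04). SPX domain gene 2 fell by 1.02 with an adjusted p from limma of 0.043, and was no longer called without any of 5 single libraries, the high P replicates 1 and 2 of bud 2 or any high P replicate of bud 6, where the adjusted p was 0.072 to 0.14. SPX domain gene 3 was not called, with a log2 difference of -0.42 ± 0.36 (SE) (limma, adjusted p = 0.31). UDP-sulfoquinovose synthase had 2793, 3429 and 3242 in bud 2 and 5039, 5517 and 6589 in bud 6, a log2 difference of 0.85 ± 0.10 (SE) (limma, adjusted p = 1.6e-07) that stayed within 2-fold.

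Members called higher in bud 6 in high P of experiment 1 included the raffinose synthase Scf00089g01521.1, with 7.49, 2.68 and 10.5 normalised counts in bud 2 and 171, 233 and 138 in bud 6. This difference of 4.64 ± 0.48 (SE) (limma, adjusted p = 3.7e-08) went against the other raffinose family genes, of which 4 of 4 tested were called lower. The MFT-type gene had 45.9, 70.4 and 46.4 in bud 2 and 284, 99.5 and 72.2 in bud 6, a log2 difference of 1.24 ± 0.45 (SE) (limma, adjusted p = 0.017). Without high P replicate 1 of bud 6 that difference was 0.66 with an adjusted p of 0.16, and it was also lost without high P replicate 1 or 3 of bud 2, at 0.052 and 0.051.

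**Figure D4:**
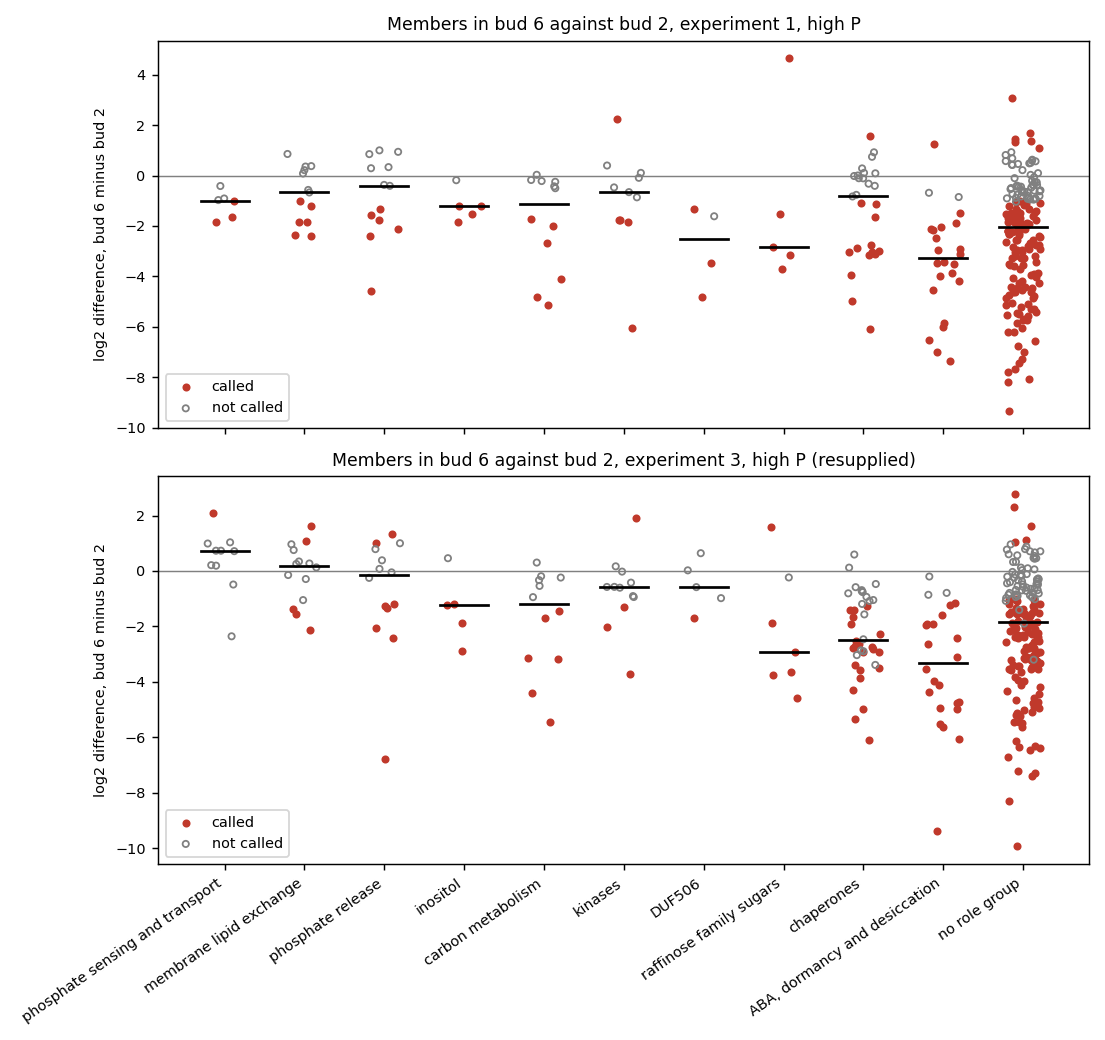
Log2 difference between bud 6 and bud 2 for each member under high P, in experiment 1 (upper panel, 297 members tested) and experiment 3 (lower panel, 332 members), by role group; filled points are called (over 2-fold and adjusted p below 0.05, limma), open points are not, and bars are group medians. Abscisic acid, dormancy and desiccation genes lay mostly below 0 in both panels, with medians of -3.28 and -3.31, whereas the phosphate sensing and transport medians were -0.997 and 0.72. Role groups rest on descriptions from lists of genes that differed in these samples, so that nothing is read from these medians.

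In experiment 3 the position differences rest on the libraries that chose the members. Among resupplied plants 192 of 332 members were called lower in bud 6 than in bud 2 and 12 higher, against 18.8% and 13.1% of all genes. Among low P plants 133 were called lower and 8 higher, against 13.4% and 12.6%. Of the members, 114 were called lower in bud 6 in all 3 comparisons. The share of all genes called lower in all 3 was not counted, so that nothing is read from this number. ASN1 fell by 4.09 on the log2 scale in high P of experiment 1 (SE 0.62, limma, adjusted p = 6.2e-06) and by 4.41 in resupplied plants (SE 0.79, limma, adjusted p = 1.5e-04), and in low P its difference was -0.64 ± 0.79 (SE) (limma, adjusted p = 0.5). Of the 10 genes of phosphate sensing and transport none was called lower in either medium of experiment 3. One copy of phosphate transporter 1 (Scf00006g00445.1) was called higher in bud 6 in low P, by 2.75 ± 0.76 (SE, limma, adjusted p = 0.0054), with 124, 89.0 and 74.9 normalised counts in bud 2 and 607, 523 and 814 in bud 6. The same copy was also called higher in bud 6 after resupply, a call kept under 8 alternatives and lost under 6. The pyridoxal phosphate phosphatase-related protein was called higher in bud 6 in low P and after resupply, by 1.08 ± 0.33 (SE, limma, adjusted p = 0.01) and 1.35 ± 0.33 (SE, limma, adjusted p = 0.0018). The low P call was lost without low P replicate 3 of bud 6, at an adjusted p of 0.057, and fell to 1.00 without low P replicate 3 of bud 2, at the 2-fold limit. Of 40 chaperones, 22 were called lower in bud 6 after resupply and 8 in low P.

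Transcripts of histone, CDKB1 and replication genes differed with position. Of these 53 genes, none of them a member, 53 were called higher in bud 6 than in bud 2 in high P of experiment 1. In experiment 3, 49 were called higher in low P and 53 after resupply. Over all genes the shares called higher were 16.7%, 12.6% and 13.1%. Descriptions came from the study's lists of genes that differed in these samples, so that counts over these 53 genes are partly fixed and support nothing. In experiment 3 the median log2 difference of low P minus high P for these genes was -0.81, -1.22, -0.75 and -0.55 in buds 2, 3, 6 and 7, with 0, 13, 2 and 1 of the 53 called lower, against 1.22%, 2.86%, 1.83% and 1.31% of all genes. Their part in the members' levels was not tested.

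Experiment 1 asked the reverse question, whether 24 h in low P raised the members in buds of plants that had been well supplied. Averaged over the 4 buds, 1 of 297 members was called higher in low P and 0 lower, against 0.00894% of all genes, which is 2 of 22363. The other gene of the 2 was a purple acid phosphatase outside the set. With no limit on the fold, 3 members had an adjusted p below 0.05 and were higher, against 0.0224% of all genes, which is 5. At an unadjusted p below 0.05 there were 76 of 297 members, against 11.8% of all genes. The difference was positive for 179 of the 297, against 48.5% of all genes, with a median log2 difference of 0.06, against a median of -0.004 over all genes.

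The member called was Scf00159g01025.1, described as a conserved hypothetical protein. In bud 2 it had 242, 353 and 464 normalised counts after withdrawal and 33.9, 134 and 92.3 in high P. In bud 7 it had 69.7, 68.0 and 87.6 and 79.1, 57.1 and 62.9, with overlap. The mean log2 difference over the buds was 1.22 ± 0.19 (SE) with an adjusted p from limma of 0.033. Its call was lost without any one of 8 of the 24 libraries, high P replicate 2 of bud 7, low P replicate 1 of bud 3, and low P replicates 2 and 3 of buds 2, 6 and 7, at adjusted p of 0.053 to 0.085. In experiment 3 the folds of this gene were 26.3, 35.4, 13.6 and 9.29.

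Glycerol-3-phosphatase 1 had 1037, 1289 and 1039 normalised counts after withdrawal in bud 3 and 304, 410.1 and 367 in high P. In bud 6 it had 148, 131 and 157 and 114, 116 and 113. No withdrawn pool overlapped with a high P pool in either bud. The mean log2 difference over the buds was 0.86 ± 0.11 (SE) (limma, adjusted p = 0.0024), and in bud 3 alone it was 1.64 ± 0.21 (SE) (limma, adjusted p = 0.0047). Phospholipase D P1 had 526, 648 and 794 after withdrawal in bud 2 and 198, 171 and 288 in high P, without overlap. In bud 7 its 132, 142 and 160.4 and 159.9, 153 and 141 overlapped. The mean log2 difference was 0.72 ± 0.12 (SE) (limma, adjusted p = 0.033), and in bud 2 alone it was 1.59 ± 0.24 (SE) (limma, adjusted p = 0.022).

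These 2 were the members called in a single bud, each 1 of 297 and each against 0.00447% of all genes. In bud 6 limma called 0 members, against 0.00447% of genes, with 37 members at an unadjusted p below 0.05 and 227 of 297 positive. Over all genes these shares were 6.15% and 48.5%. In bud 7 limma called 0 members, against 0% of genes, with 6 at an unadjusted p below 0.05 and 121 positive. Over all genes these shares were 1.34% and 51.1%. The single-bud calls were not stable. The bud 2 call was lost without high P replicate 1, high P replicate 2, low P replicate 2 or low P replicate 3 of bud 2, at adjusted p of 0.074 to 0.17, and the bud 3 call without high P replicate 1 or low P replicate 2 of bud 3, at 0.072 and 0.081. In a test of the difference between buds, no gene had an adjusted p below 0.05 in any of the 6 pairs of buds.

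By role, the 6 tested genes of phosphate sensing and transport were all higher after withdrawal on average, with a median log2 difference of 0.41 and none called (3 at an unadjusted p below 0.05), as were 12 of 13 membrane lipid genes, with a median of 0.23. SPX domain gene 3 had 70.5, 104 and 98.7 normalised counts after withdrawal in bud 2 and 72.0, 67.6 and 61.9 in high P, and a mean log2 difference of 0.34 ± 0.18 (SE) (limma, adjusted p = 0.47). Purple acid phosphatase 12 had a mean log2 difference of 0.64 ± 0.13 (SE) (limma, adjusted p = 0.079). Chaperones and genes of abscisic acid, dormancy and desiccation had medians on the other side of 0, with 9 of 27 and 8 of 24 positive and medians of -0.08 and -0.05. Whether the buds differed in this was not tested. In bud 6 the abscisic acid group was positive for 20 of 24 genes, with a median of 0.40, and the chaperones for 14 of 27. In bud 7 phosphate sensing and transport was positive for 3 of 6 genes, with a median of -0.02. None of these was called.

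**Figure D5:**
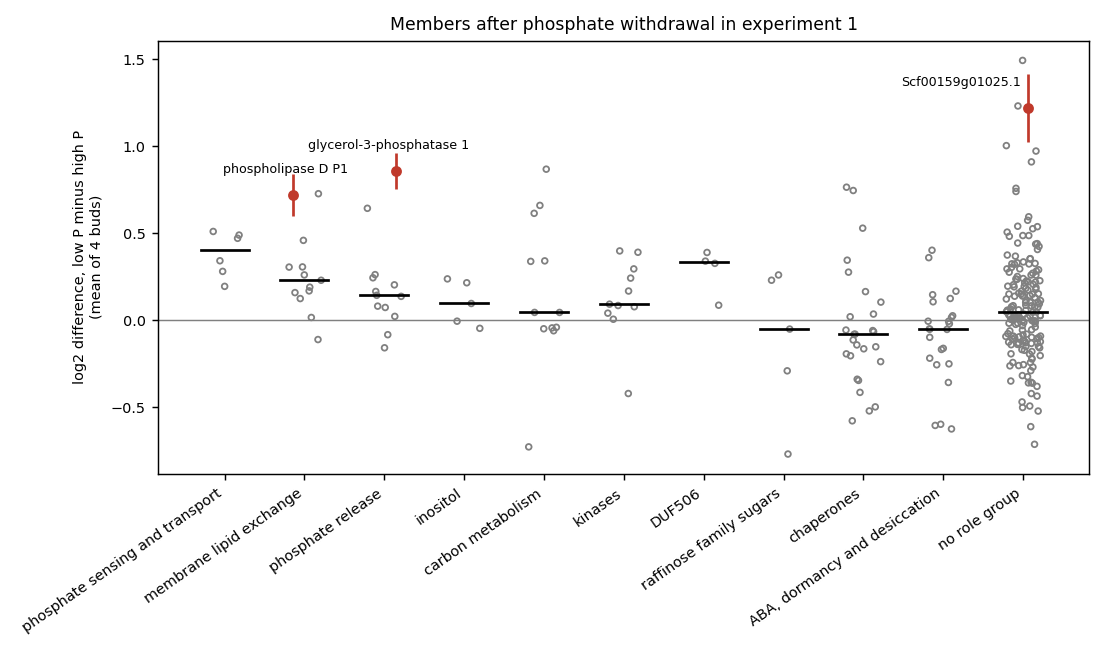
Mean log2 difference over the 4 buds between withdrawn (low P) and high P pools of experiment 1 for the 297 members tested, by role group; bars are group medians, and filled points with their standard errors are the 3 members with an adjusted p below 0.05 (limma). The 6 phosphate sensing and transport genes lay above 0 with a median of 0.41, and none of them was called.

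High P replicate 1 of experiment 1 had the highest mean member level of its group in buds 2, 6 and 7 but not in bud 3. In high P bud 7 the mean centred log2 value of all members was -0.44 in replicate 1, -0.80 in replicate 2 and -0.96 in replicate 3, and in high P bud 6 it was -0.92, -1.17 and -1.17. In bud 2 it was 0.997, 0.89 and 0.86, and in bud 3 it was 0.77, 0.92 and 0.56. With the 4 high P replicate 1 libraries left out, an alternative chosen after the data were seen, the members called higher in a single bud were 0, 0, 4 and 0 in buds 2, 3, 6 and 7, against 0%, 0%, 0.21% and 0% of all genes, which is 47 genes in bud 6.

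Set side by side as a share of each library's total, since the 2 tables were normalised separately, levels in high P of experiment 1 lay below those in low P of experiment 3 for 317, 274, 332 and 321 of the 332 members in buds 2, 3, 6 and 7. Against resupplied plants of experiment 3 they lay below for 196, 103, 223 and 176 members. Over the 20227 genes that averaged 50 or more in experiment 3 and were in both tables, the shares below were 44.9%, 46.5%, 45.1% and 37.2% against low P, and 51.0%, 40.3%, 37.4% and 32.0% against resupplied plants. The members were chosen for high values in low P and low values after resupply, so that these counts are partly fixed by the rule and support nothing. For the chaperones the median log2 ratio of experiment 1 high P to resupplied plants was -3.60, -2.23, -2.32 and -1.94. The genes of abscisic acid, dormancy and desiccation were at 0.45, 2.08, 0.20 and 1.17, and those of phosphate sensing and transport at 0.08, 0.22, -1.63 and -1.62. Over the 20227 genes the medians of the same ratio were -0.01, 0.21, 0.12 and 0.19. By the methods, the 2 experiments also differed in read length, sequencing and pipeline version. Experiment, growth history and these technical differences cannot be told apart in these ratios.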

How the data were processed

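The labels and the methods describe bulk RNA-seq of pooled axillary buds. Per the labels, reads were trimmed with Trim Galore, checked with FastQC, aligned with STAR and quantified with Salmon. The authors deposited, for each experiment, 1 table of counts normalised by DESeq2 size factors, a signal that is neither a whole read count nor corrected for transcript length, so that levels are not compared between genes. Comparisons were made within a table, except that levels of the 2 experiments were set side by side as shares of library totals. Values were analysed as log2(value + 1), and fold changes on that scale understate those of low genes. Genes that averaged 10 or more in the 24 libraries of an experiment were fitted with limma 3.58.1 in R 4.3.3 (trend, 8 group means, 16 residual degrees of freedom), without a replicate block, and p-values were adjusted over all genes tested. A call needed more than 2-fold and an adjusted p below 0.05. Replicates were pools of buds from several plants grown in the same experiment, and p-values measure the spread between these pools. Plants shared containers of solution, so that each medium was given by container. Medium and container cannot be told apart by these p-values. Descriptions came from the study's annotation, and 4 identifiers are not reported here. Members, role groups and lists were chosen with earlier results of these data known, and role groups were completed by the same descriptions once the values were in hand. Named genes were all of phosphate sensing and transport, in each other role group the 4 with the highest low P mean and the 2 with the largest minimum fold, the extremes and threshold neighbours of the set, and members called after withdrawal; others were chosen after their values were seen. Alternatives were the pseudocount, the level filter, upper quartile and quantile normalisation, the libraries in the fit, a replicate block, single libraries left out, and other limits of the rule. The scripts were tested on simulated data. Same-numbered pools were checked for pairing by the correlation of their deviations from group means. Every pair exceeded 0.1 only for withdrawal in bud 2 (0.15 to 0.31) and for the difference between buds 6 and 2 in experiment 1 (0.15 to 0.28), where the pairing comes from the data alone.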

Additional observations from a re-analysis of the deposited data

How the results depend on the processing

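Limits are the 3 pools per group and the uneven low P pools in experiment 3. The number of genes that met the rule was 829 at a ratio of 1.5, 128 at a ratio of 3, and 238 to 358 when 1 replicate number or 1 library was left out. Without any replicate 1 pool 238 genes met it, 218 of them members.

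Members called after withdrawal ranged over single libraries left out from 0 to 1 for the mean of buds (1 to 4 without a limit on the fold), 0 to 2 in bud 2, 0 to 2 in bud 3, 0 to 1 in bud 6, and 0 in bud 7. With only the libraries compared in the fit, 0 were called in bud 2 and 0 in bud 3. Without the high P replicate 1 libraries, chosen after the data were seen, the counts were 0 in bud 2, 0 in bud 3 and 4 in bud 6. For bud 6 against bud 2 in experiment 1, 4 members were called higher among those with a mean of at least 50, and 22 after quantile normalisation. In resupplied plants 23 were called higher after quantile normalisation. What caused these changes was not tested. With 1 library left out, members called lower and higher were 185 to 190 and 9 to 12 in high P of experiment 1, 97 to 153 and 3 to 10 in low P, and 175 to 211 and 6 to 15 in resupplied plants of experiment 3, lowest for lower calls in low P without replicate 1 of bud 2. Higher calls numbered 3 without low P replicate 3 of bud 6, and 6 without resupplied replicate 3 of bud 6.

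With the replicate block, members with an adjusted p below 0.05 and higher after withdrawal on average numbered 6 instead of 3, and members called lower in bud 6 were 189, 133 and 198 in high P of experiment 1, low P and resupplied plants. It changed no other count of members. Apart from the comparisons named in the methods, same-numbered pools exceeded a correlation of 0.1 in 4 of 12 pairs for the mean of buds, 3 of them those of bud 2, in 0 of 3 in buds 3 and 6, 1 of 3 in bud 7, and 2 of 3 and 1 of 3 for position in low P and resupplied plants. In low P the correlations of replicates 1 and 3 were 0.26 and 0.19. Since not every pair exceeded 0.1, these pools were not taken as paired, and what same-numbered pools shared was not tested. No result reversed under any alternative.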
